A study of Mus musculus with 4 samples.

Results

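The vascular barcodes of a single-cell survey of the mouse bed nucleus of the stria terminalis numbered 88, chosen by their measured counts out of 4239 barcodes that passed filters on gene number (400 or more) and mitochondrial UMIs (10% or less), and out of 10200 in all. A UMI (unique molecular identifier) tags 1 captured RNA molecule, and a barcode stands for 1 captured cell. A barcode was taken as vascular when the neuronal genes Snap25, Syt1, Stmn2, Snhg11 and Meg3 made up less than 0.6% of its UMIs and when Flt1, Ly6c1, Ly6a, Slco1a4, Ptprb, Rgs5, Acta2 and Igfbp7 together reached at least 3 UMIs. Among these 88, 56 had more Flt1, Ly6c1 and Slco1a4 UMIs than Rgs5 and Acta2 UMIs and are called the endothelial side, 31 had more Rgs5 and Acta2 UMIs and are called the mural side, and 1 had neither. The barcodes came from 4 Drop-seq libraries, in which droplets pair single cells with barcoded beads. Each library pooled punches of the nucleus from 6 male wildtype C57BL/6J mice, with no treatment named and no age given in the sources used here. All 4 libraries form a single group, so the comparisons run between classes of barcodes within libraries. Pooling leaves individual mice out of reach, and the p-values measure only the spread between 4 pooled libraries.

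Brain capillaries are lined by endothelial cells that seal the vessel wall with tight junctions and carry nutrients and waste across it through transporters, together forming the blood-brain barrier. Pericytes lie on the capillary wall within the same basement membrane, and smooth muscle cells ring arterioles and set their width. Endothelial cells send PDGF-B and Notch ligands to mural cells, and Wnt ligands and Norrin from the surrounding tissue maintain barrier properties of the endothelium.

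In libraries 1 to 4, 37 of 1300, 23 of 894, 15 of 852 and 13 of 1193 barcodes were vascular. These are shares of 2.85% (95% exact Clopper-Pearson interval 2.01 to 3.90), 2.57% (1.64 to 3.84), 1.76% (0.989 to 2.89) and 1.09% (0.581 to 1.86). The mean was 2.07% ± 0.798 (SD, n = 4), and the intervals of libraries 1 and 4 did not overlap; they cover counting error only. The mural side made up 30.6%, 34.8%, 46.7% and 38.5% of the barcodes on either side, a mean of 37.6% ± 6.84 (SD, n = 4), with intervals that all overlapped. These are shares of recovered barcodes passing the filters on genes and mitochondrial UMIs, which can differ from shares of cells in the tissue.

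Vascular barcodes held 116527 UMIs, 0.951% of the UMIs of the 4239 barcodes, of which 76508 were on the endothelial and 34572 on the mural side. Their median was 914.5 UMIs (range 494 to 7361) and 587.5 genes, against 1155.5 UMIs and 695.5 genes in the 1662 other barcodes under the neuronal limit (other non-neuronal barcodes) and 1896 UMIs in all 4151 others. The median mitochondrial share was 5.61%, against 4.46% in other non-neuronal barcodes. No barcode sequence of a vascular barcode recurred in another library, although 11 sequences did so over all barcodes.

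The genes of the rule are given as a description, because they chose the barcodes. Flt1, a VEGF receptor of endothelium, reached 3510, 3922, 2821 and 4645 CPM (UMIs per 1000000 UMIs of the class) in the summed vascular barcodes of libraries 1 to 4. Ly6c1, a surface protein of brain endothelium, stood at 3767, 4026, 1982 and 2803 CPM, and Rgs5, a regulator of G protein signalling in mural cells, at 2125, 5276, 4422 and 3684 CPM. Acta2, smooth muscle actin, was the steadiest of these, at 2093, 1944, 2364 and 2162 CPM. The 88 barcodes held between 84.1% (Ptprb) and 95.9% (Ly6a) of the UMIs that each of the 8 genes had among the 4239. Reads of Ly6c1, Ly6a and Ly6e may be split between close relatives, and Igfbp7 overlaps Polr2b on the opposite strand.

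The threshold of 3 UMIs fell in a sparse stretch. Among the 1750 barcodes under the neuronal limit, 1633 had no vascular UMI, 26 had 1, 3 had 2, 5 had 3 to 5 and 83 had 6 or more, and the members' median was 20. The 3 barcodes just outside, with 2 vascular UMIs each, had 763, 1095 and 786 UMIs in all. Just inside, the barcode on neither side had 3 vascular UMIs among 5447, together with 585 UMIs of oligodendrocyte markers. The other 4 had 4 or 5 vascular UMIs among 540 to 793. The plot of vascular UMIs shows this gap. Its axes on the right are the sums that define the sides, so where a barcode lies against the line follows from the rule. Most barcodes lie on or near an axis, but 23 endothelial-side and 7 mural-side barcodes had UMIs of both sums.

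**Figure D1:**
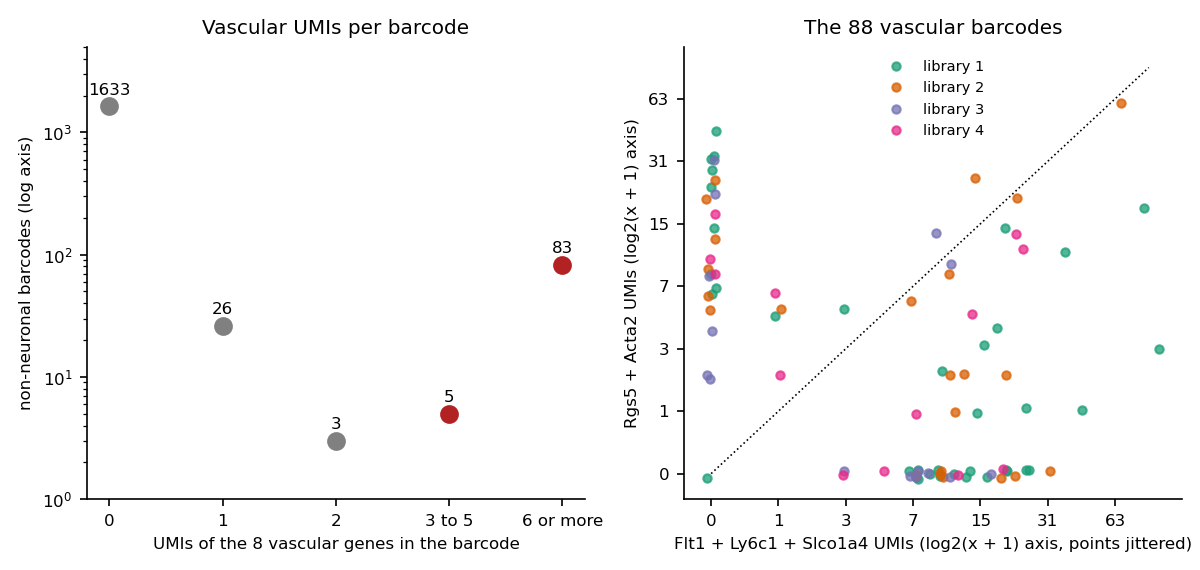
Left, number of non-neuronal barcodes (log axis) by their UMIs of the 8 vascular genes; red points are the barcodes taken as vascular. Right, each of the 88 vascular barcodes by its Flt1, Ly6c1 and Slco1a4 UMIs (x) and its Rgs5 and Acta2 UMIs (y), both on log2(x + 1) axes, coloured by library, with the line of equality dotted; 83 barcodes had 6 or more vascular UMIs, and 31 lie above the line.

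The label was checked with 8 genes outside the rule, of which each side carried its own. Cldn5, the main claudin of brain endothelial tight junctions (chr16:18776847-18778262, + strand, GRCm38), stood at 1825, 1190.1, 1776 and 883 CPM in the endothelial side of libraries 1 to 4, and at 199.8, 116, 0 and 0 in the mural side. It had 122 UMIs in 41 of the 88 vascular barcodes, and 1 UMI in the 1662 other non-neuronal barcodes, which were deeper. Pecam1 and Cdh5, adhesion proteins of endothelial junctions, had 38 and 24 UMIs, all on the endothelial side and none on the mural side. A count of 0 on the mural side allows up to 86.8 CPM.

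The mural markers were placed the other way. Myh11, the smooth muscle myosin heavy chain (chr16:14194535-14291372, - strand, GRCm38), stood at 3597, 4049.5, 2539 and 4955 CPM in the mural side and at 24, 99.2, 0 and 110.4 in the endothelial side, without overlap. Tagln, an actin-binding protein of smooth muscle, stood at 4862, 4628, 1737 and 4955 CPM in the mural and 0, 198, 0 and 110.4 in the endothelial side. Vtn, which brain pericytes make, was at 1732, 2545, 2138 and 1457 against 408, 248, 0 and 663 CPM. Pdgfrb, the PDGF-B receptor of mural cells, was at 399.6, 1041, 1469.8 and 291 against 72, 248, 178 and 331 CPM, so that the ranges overlapped and library 4 was lower on the mural side. Kcnj8, a potassium channel subunit of pericytes, had only 11 UMIs, 10 of them on the mural side. Tagln overlaps Pcsk7 on the opposite strand, and whether counting used strand is not given in the sources used here.

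**Figure D2:**
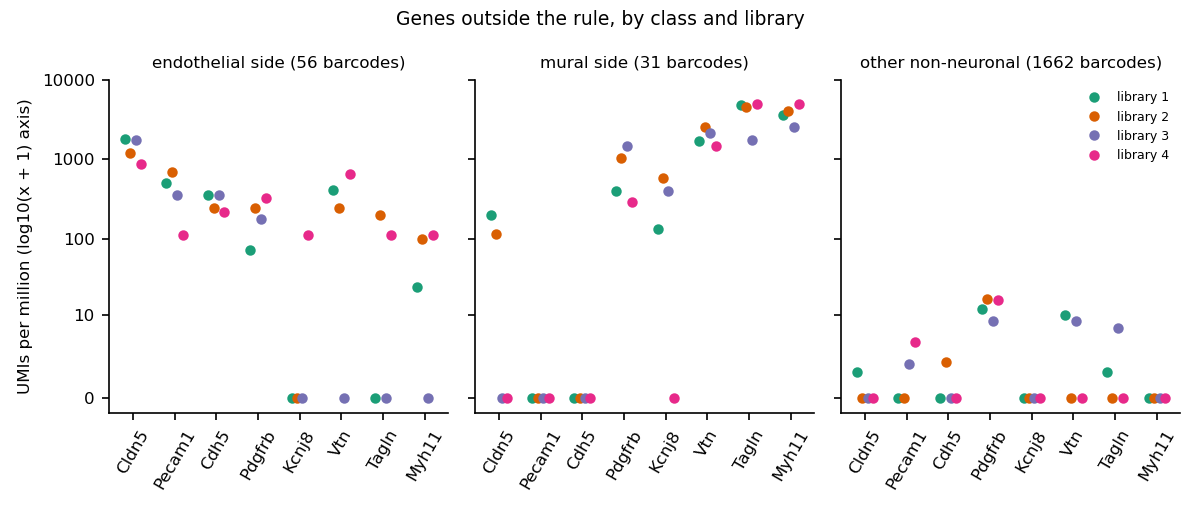
CPM (log10(x + 1) axis) of 8 genes outside the rule in each library, for the 56 endothelial-side, 31 mural-side and 1662 other non-neuronal barcodes. Cldn5, Pecam1 and Cdh5 stand high on the endothelial side, while Vtn, Tagln and Myh11 stand between 1457 and 4955 on the mural side.

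To find which genes set these cells apart, each library's counts were added up within each class, and the sums compared with edgeR's quasi-likelihood test with libraries as blocks, at a Benjamini-Hochberg adjusted p of 0.05. These genes were measured in the barcodes that the rule chose, so a p covers the spread between libraries and not the choice. Against all 4151 other barcodes, 28.3% of 9831 tested genes differed, 7.25% higher and 21.0% lower in vascular barcodes. The median log2 fold change of all tested genes was -0.95. The split depends on the scaling: relative log expression size factors gave 757 higher and 2846 lower in place of 713 and 2066. The largest differences among higher genes outside the rule included Gkn3 (log2 fold change 11.12 ± 0.64 SE), Myh11 (10.45 ± 0.58), Eltd1, an adhesion receptor of endothelium (10.15 ± 0.71), and Myl9 (9.84 ± 0.55). She and Gper1, in no list here, had 24 and 23 vascular UMIs and 1 UMI each in all others. At the other end stood genes of neurons with no vascular UMI, among them Scg2 (at least 42.6-fold lower) and Gad1 (at least 19.3-fold).

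The comparison with other non-neuronal barcodes, which include the glia, is the closer one. There 27.5% of 5223 genes differed, 11.1% higher (578 genes) and 16.4% lower (858). Scaling with relative log expression size factors turned this split into 504 higher and 1317 lower, and moved the median log2 fold change of all tested genes from -0.29 to -0.61. Of the 570 higher genes outside the rule, 414 needed the vascular sums to pass the filter on low counts. For these, other non-neuronal barcodes did not reach its level, 35.8 CPM here, in all 4 libraries. Below, such genes are said to pass through the vascular sums only, although the other class could reach the level in some libraries. Genes under it in every sum of the other class could hardly be called other than higher. List counts are given with the number of genes that needed the vascular sums, and are descriptions.

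Oligodendrocyte and astrocyte markers were scarcer in vascular than in other non-neuronal barcodes, while microglial, fibroblast and ependymal markers gave a mixed picture. Oligodendrocyte markers, 10 genes, summed to 10159, 486, 1144 and 5446 CPM in vascular barcodes of libraries 1 to 4, against 84777 to 104137 CPM in other non-neuronal barcodes, and all 10 were lower. In 2 of the 88 barcodes they made up at least 2% of UMIs, and Mog and Opalin were at 0. Astrocyte markers summed to 243 to 741 against 3494 to 5685 CPM, with 9 of 9 tested genes lower. Microglial markers had only 8 UMIs, 5 of the 9 genes being at 0. They summed to 48.3, 34.7, 76.2 and 240 CPM in vascular barcodes of libraries 1 to 4. Other non-neuronal barcodes had 148, 213, 114 and 42.3 CPM, so library 4 went the other way. The 1 microglial gene tested did not pass (-0.55). Markers of perivascular macrophages, choroid plexus and erythrocytes had no vascular UMI. In other non-neuronal barcodes each of these 3 lists stood at 14.9 CPM or less in every library. The 9 fibroblast markers summed to 370.3 to 839 against 2389 to 4180 CPM. Of these, 4 were tested (2 through the vascular sums only), with a median of -1.36: Col1a2 and Igf2 were higher, and Pdgfra and Apod were lower. Col1a2, a collagen that some mural cells also make, was 2.44 ± 0.61 higher (edgeR adjusted p = 0.00049), with 11 of its 13 vascular UMIs on the mural side. Of 5 ependymal markers, only Rarres2 had vascular UMIs, 22 in all, and 17 of them were on the mural side. Rarres2 was at 129, 347, 76.2 and 240.2 CPM in vascular barcodes against 11.2 to 24.9 in other non-neuronal barcodes, and was higher (3.18 ± 0.53, edgeR adjusted p = 1.9e-08). It passed the low-count filter only through the vascular sums, so it could hardly be called otherwise.

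The part of these other markers in the results was not tested beyond leaving out the 2 oligodendrocyte-rich barcodes, an alternative added after seeing the data. Without them, 1384 of the 1436 calls against other non-neuronal barcodes were kept, and the split became 527 higher and 1252 lower, with a median log2 fold change of -0.56 over all tested genes.

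The plot of gene lists gives the log2 fold change of each tested list member against other non-neuronal barcodes. Most vascular lists lie to the right of the median of all tested genes, and the glial lists to the left.

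**Figure D3:**
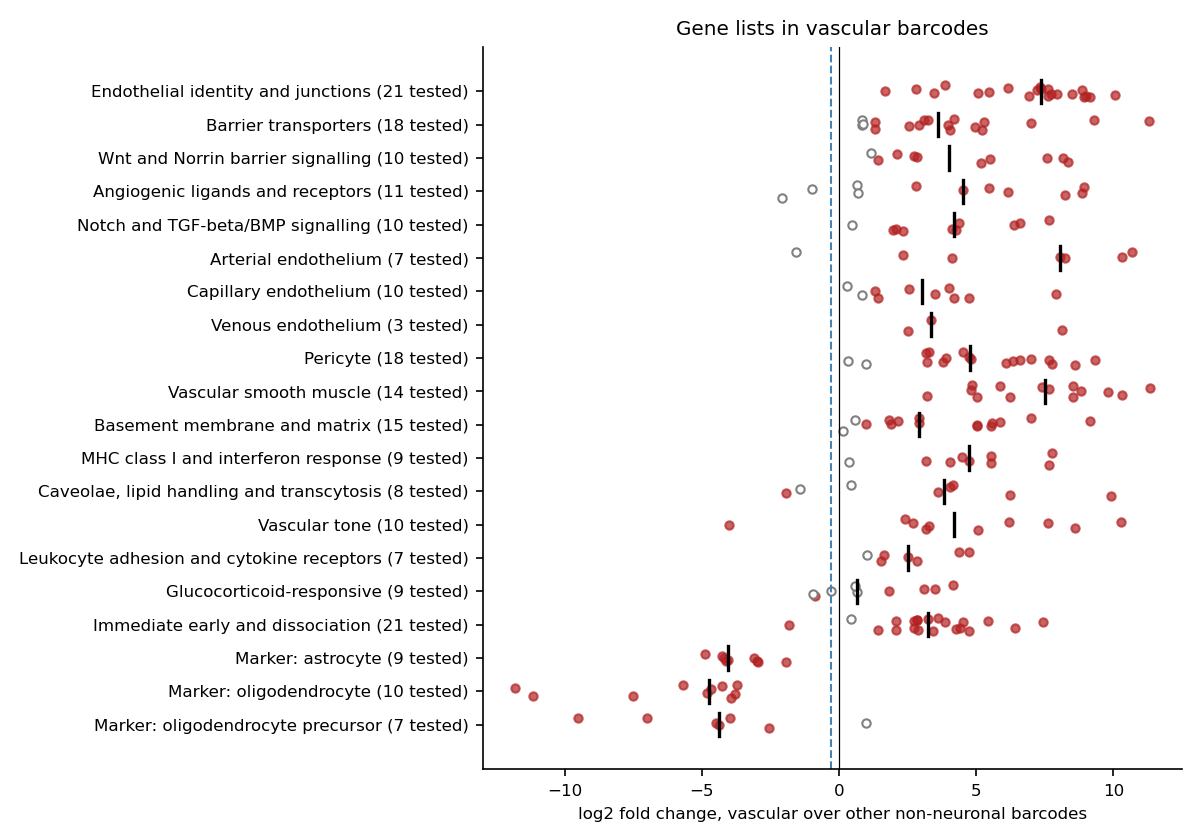
Log2 fold change of each tested list gene, vascular over other non-neuronal barcodes; filled points are past an adjusted p of 0.05 and open points are not. Black bars are list medians, 7.35 for endothelial identity and -4.75 for oligodendrocyte markers, and the dashed line is the median of all 5223 tested genes, -0.29.

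Endothelial identity and junction genes were higher throughout. Of 32 genes in the tables, 21 were tested, 18 of these through the vascular sums only, and all 21 were higher; the median log2 fold change was 7.35, or 7.32 with genes absent elsewhere set at their bound. Tie1 and Tek, the receptors of the angiopoietin pathway, had 24 and 48 vascular UMIs and 0 and 1 in other non-neuronal barcodes, which puts Tie1 at least 174-fold higher. Tek was at 600.2, 298, 1243 and 1104 CPM on the endothelial side and had no UMI on the mural side. Itm2a, a membrane protein abundant in brain endothelium (chrX:107397099-107403376, - strand, GRCm38), was at 1996, 2152, 1525 and 1201 CPM in vascular barcodes and at most 14.5 CPM elsewhere (7.23 ± 0.43, edgeR adjusted p = 9.4e-62). In other non-neuronal barcodes Itm2a was under the low-count filter's 35.8 CPM in every library, so it could hardly be called otherwise. The 11 genes not tested had too few UMIs.

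Promoters of these genes were searched for AGGAAG on both strands (CTTCCT on the strand printed), letters often found in binding sites of ETS factors such as Erg, which direct endothelial genes. Windows ran from 250 bases before to 50 after the start, from RefSeq on GRCm38.p6. The letters occurred in 11 of 19 genes of the list with a window (57.9%), against 38.4% of all 27025 genes, and not in that of Cldn5. Among the 8 genes with a window that the rule for named genes picked as higher on the endothelial than the mural side, 2 held them (25.0%). The 2 windows printed, each with 2 matches in capitals, were chosen after the matches were seen, to show where the letters lie: Tie1 at chr4:118489800-118490099 and Itm2a at chrX:107403311-107403610, both on the - strand, where the 2 matches of Itm2a overlap. A match is a stretch of letters and not a measured binding site.
Tie1: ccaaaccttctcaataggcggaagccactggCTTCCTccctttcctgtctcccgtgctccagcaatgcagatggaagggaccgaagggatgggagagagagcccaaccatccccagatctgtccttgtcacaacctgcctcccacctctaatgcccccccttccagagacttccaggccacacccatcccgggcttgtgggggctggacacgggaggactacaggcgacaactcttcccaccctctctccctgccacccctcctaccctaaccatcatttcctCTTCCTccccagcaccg
Itm2a: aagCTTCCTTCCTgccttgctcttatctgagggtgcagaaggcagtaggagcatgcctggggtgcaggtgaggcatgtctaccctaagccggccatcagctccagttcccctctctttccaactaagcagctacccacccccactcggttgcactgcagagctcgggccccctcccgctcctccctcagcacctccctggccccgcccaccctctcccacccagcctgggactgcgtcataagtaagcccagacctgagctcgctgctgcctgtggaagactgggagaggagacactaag

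Barrier transporters differed in how far they set the endothelium apart. Of 27 genes, 18 were tested (11 through the vascular sums only), 15 were higher and 3 did not pass, with a median of 3.60. Abcb1a, the P-glycoprotein efflux pump, was at 1288, 1041, 1525 and 480.5 CPM in vascular barcodes and had no UMI in other non-neuronal barcodes (at least 985-fold higher). Abcg2, the other major efflux pump, was at 547, 451, 381 and 721 CPM against 9.33 to 18.2. Abcg2 had 35 UMIs in 34 of the 1662 other non-neuronal barcodes.

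Nutrient carriers also had UMIs in other non-neuronal barcodes. Slc2a1, the glucose transporter, was at 1288, 1458, 839 and 1121 CPM, and other non-neuronal barcodes held 160 UMIs, 35.7 to 88.6 CPM (3.97 ± 0.36). Slco1c1, a thyroid hormone carrier that astrocytes also make, was at 2061, 1631, 1601 and 1522 CPM against 66.9 to 123 (4.04 ± 0.35). Slc7a5, a large neutral amino acid carrier, was at 129, 139, 152 and 240.2 CPM against 2.23 to 14.9 (4.21 ± 0.62). Mfsd2a, a lipid carrier of brain endothelium, had 12 UMIs, at 96.6, 174, 76.2 and 0 CPM against 40.1 to 58, and did not pass (0.84 ± 0.59, edgeR adjusted p = 0.32). Slc2a1 overlaps Gm12867 and Gm12868 on the opposite strand.

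Wnt and Norrin signalling genes that were tested were nearly all higher. Of 20 genes in the tables, 10 were tested (7 through the vascular sums only) and 9 were higher. Lef1, a transcription factor through which beta-catenin acts, was at 419, 104, 229 and 160.2 CPM, with 32 of 34 UMIs on the endothelial side and 1 in other non-neuronal barcodes (ratio 739, 95% counting interval 124 to 30033). Foxq1 and Foxf2, forkhead factors of brain endothelium, had 41 and 16 UMIs, all on the endothelial side. Foxq1 was at 504, 545, 533 and 663 CPM there, a narrower range than those of Lef1 and Foxf2, and had 3 UMIs in other non-neuronal barcodes. The 95% counting intervals of such ratios cover counting error only.

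Among angiogenic ligands and receptors, Kdr, Tek, Tie1 and other receptors were higher and Vegfa did not pass. Of 23 genes, 11 were tested (8 through the vascular sums only), 7 were higher and 4 did not pass. Kdr, the main VEGF receptor, was at 354, 208, 457 and 320.3 CPM against 1.87 to 6.63 in other non-neuronal barcodes (6.17 ± 0.55, edgeR adjusted p = 1.5e-27). Its other non-neuronal sums were all under the low-count filter's 35.8 CPM, so Kdr could hardly be called otherwise. Nrp1, its co-receptor, was less distinct, at 241, 486, 457 and 160.2 CPM against 31.2 to 46.3 (2.81 ± 0.44). Vegfa had 2 vascular UMIs and 168 in other non-neuronal barcodes, at 52.4 to 89.5 CPM there (-2.09 ± 0.95, edgeR adjusted p = 0.088).

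Notch, TGF-beta and BMP genes that were tested were nearly all higher in vascular barcodes. Of 24 genes, 10 were tested (8 through the vascular sums only) and 9 were higher. None of the 24 had enough UMIs to be tested between the sides, so their levels by side are descriptions. Acvrl1, the endothelial BMP receptor ALK1, had 37 UMIs, all on the endothelial side. Id1, a target of BMP signalling, was at 1777, 1289, 1598 and 883 CPM on the endothelial side and 66.6, 347, 267 and 0 on the mural side. Notch3, the Notch receptor of mural cells, had 12 of 16 UMIs on the mural side, which held fewer UMIs in all. Hes1, a Notch target, was found on both, at 768, 545, 178 and 221 CPM on the endothelial and 1732, 2429.7, 668 and 874 CPM on the mural side. Notch3 overlaps Gm17276 on the opposite strand.

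Arterial, capillary and venous genes were all found among vascular barcodes. Arterial genes had 7 of 14 tested (6 through the vascular sums only) and 6 higher, capillary genes 10 of 11 tested (5 so) and 8 higher, and venous genes 3 of 10 tested (3 so) and 3 higher. Gkn3, a marker of brain arterial endothelium, had 309 UMIs in 19 barcodes, at 3075, 3054, 76.2 and 2322 CPM in libraries 1 to 4, so library 3 was far lower than the others. Mgp, a matrix protein of arteries and smooth muscle that is in both lists, was likewise lowest in library 3, at 934, 2603, 305 and 1041 CPM. Library 3 contributed 8 of the 56 endothelial-side barcodes.

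Car4, a carbonic anhydrase of capillary endothelium, was at 708, 555, 534 and 320.3 CPM against at most 4.03 elsewhere (7.90 ± 0.58). Vwf, the clotting factor stored in larger-vessel endothelium, was at 354, 104, 305 and 160.2 CPM, all on the endothelial side. Of the 56 endothelial-side barcodes, 28 had an arterial UMI, 54 a capillary UMI and 26 a venous UMI, and 15 had both arterial and venous UMIs. A UMI of a list does not by itself place a barcode in a vessel zone, since 366, 666 and 188 of the 1662 other non-neuronal barcodes had an arterial, a capillary and a venous UMI. No classes by zone were formed.

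Among genes of vascular tone, an endothelin ligand was higher in vascular barcodes and an endothelin receptor was lower. Of 25 genes, 10 were tested (8 through the vascular sums only), 9 were higher and 1 lower. Edn1, the endothelin-1 ligand, was at 724, 521, 229 and 641 CPM, with 69 of 71 UMIs on the endothelial side and none in other non-neuronal barcodes (at least 514-fold higher). Ednrb, an endothelin receptor made by astrocytes, was the lower gene, with 4 vascular UMIs in 1 barcode and 395 to 584 CPM in other non-neuronal barcodes (-4.03 ± 0.60, edgeR adjusted p = 2.7e-10). With at least 800 genes per barcode Ednrb no longer passed (-1.63). Nos3, the endothelial nitric oxide synthase, had 20 of 21 UMIs on the endothelial side, and overlaps Atg9b on the opposite strand.

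Basement membrane and matrix genes were found on both sides, at a higher summed level on the mural side, where Sparcl1 and Vtn held much of the sum. Of 26 genes, 15 were tested against other non-neuronal barcodes (10 through the vascular sums only) and 13 were higher. The list summed to 17983, 16430, 17905 and 18945 CPM on the mural side and 9339, 9570, 9767 and 10269 CPM on the endothelial side, without overlap. Sparcl1 had 233 and Vtn 69 of the list's 611 UMIs on the mural side, against 113 and 28 of 730 on the endothelial side. The sums therefore do not describe a difference of the list in general. Between the sides 4 of its genes were tested, of which Vtn and Sparcl1 were higher on the mural side and Sparc and Timp3 did not pass. Fn1, fibronectin, was at 596, 486, 534 and 480.5 CPM with 63 of 64 UMIs on the endothelial side, and had 1 UMI in other non-neuronal barcodes. Col4a1, a chain of basement membrane collagen, was at 322, 312, 534 and 721 CPM (5.57 ± 0.50), with 24 UMIs on the endothelial and 21 on the mural side. Sparc and Timp3, which glia also make, were 1.84 ± 0.33 and 2.91 ± 0.33 higher. Col4a1 and Col4a2 overlap on opposite strands, as do Timp3 and Syn3.

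Caveolar and antigen presentation genes were higher as well. Ptrf, the caveolar coat protein cavin-1, was at 918, 1145, 839 and 641 CPM and had 1 UMI in other non-neuronal barcodes. Apoe, a lipid carrier made mainly by astrocytes, was lower, at 1256, 694, 381 and 3123 CPM against 2975 to 4386 (-1.94 ± 0.34, edgeR adjusted p = 1.3e-07), and library 4 lay within the range of the others. With at least 800 genes per barcode Apoe no longer passed (-0.57). In the caveolar and lipid list of 13 genes, 8 were tested (5 through the vascular sums only), 5 were higher and 1 lower.

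B2m, the light chain of MHC class I, was at 2399, 2256, 991 and 1522 CPM against 66.3 to 103 in other non-neuronal barcodes (4.03 ± 0.35). Ifitm3, an interferon-induced antiviral protein, was at 741, 729, 762 and 561 CPM against at most 4.46 (7.77 ± 0.52). Of 25 MHC class I and interferon genes, 9 were tested (7 through the vascular sums only) and 8 were higher. Reads of H2-D1 and H2-K1, and of Ifitm1 and Ifitm3, may be split between close relatives, and B2m overlaps Patl2 on the opposite strand.

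Immediate early genes, which cells switch on within minutes of a stimulus and also during tissue dissociation, were high in vascular barcodes of every library. The 22 genes of the list summed to 17403, 28428, 20130 and 38840 CPM in vascular barcodes of libraries 1 to 4, against 3028 to 3967 CPM in other non-neuronal barcodes. Of 21 tested genes (10 through the vascular sums only), 19 were higher and 1 was lower, with a median of 3.25. Fos was at 1948, 3992, 2897 and 5366 CPM against 302 to 514 (2.73 ± 0.32, edgeR adjusted p = 5.3e-16). Egr1 was at 1481, 3714, 3355 and 5366 CPM against 268 to 506 (2.85 ± 0.32), and Junb at 1529, 2985, 1830.0 and 3203 against 58 to 131 (4.27 ± 0.34).

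Every library was higher for each of these genes, with library 4 highest. Klf2, a flow-responsive endothelial factor that is on the list, was at 1175, 1631, 1296 and 1762 CPM and 7.44 ± 0.43 higher, a gene that marks endothelium on other grounds as well. Hsp90aa1, a heat shock chaperone, was the lower gene, at 241 to 320.3 against 713 to 856 CPM (-1.84 ± 0.39). The median mitochondrial share of vascular barcodes was 5.71%, 5.24%, 7.34% and 2.59% in libraries 1 to 4, lowest where the list stood highest. Dissociation and the state of the cells in the animal cannot be told apart here. Junb overlaps Prdx2 on the opposite strand.

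Glucocorticoid-responsive genes gave a mixed picture. Of 13 genes, 9 were tested (3 through the vascular sums only), 4 were higher, 1 was lower and 4 did not pass, with a median of 0.66. Nfkbia, an inhibitor of NF-kappaB, was at 1320.1, 798, 1906 and 1121 CPM against 83.6 to 151 (3.10 ± 0.34). Nr3c1, the glucocorticoid receptor, was at 628, 451, 457 and 320.3 CPM against 242 to 312, higher in each library yet not past the threshold (0.57 ± 0.36, edgeR adjusted p = 0.26). Tsc22d3, its classical target, was at 579.6, 382, 381 and 160.2 against 188 to 265 CPM (0.66 ± 0.37, edgeR adjusted p = 0.19).

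The mural and endothelial sides were compared for the 78 genes with enough UMIs, of which 55.1% differed, 29.5% higher and 25.6% lower in the mural side. Outside the rule these were 18 higher and 15 lower of 64. Of the 18 higher genes, 15 needed the mural sums to pass the low-count filter. Only genes with many UMIs on a side could be tested at this depth. Relative log expression scaling gave 17 higher and 24 lower in place of 23 and 20, and moved the median log2 fold change of the tested genes from 0.06 to -0.26. Leaving out the barcodes rich in glial markers gave 16 higher and 24 lower.

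Contractile genes led on the mural side. All 7 tested genes of the 21 on the smooth muscle list were higher, and each of these 7 needed the mural sums to pass the low-count filter. Myh11 was 6.14 ± 0.60 higher (edgeR adjusted p = 1.9e-06) and Tagln 6.09 ± 0.70 (4.0e-06). Tpm2, a muscle tropomyosin, was at 2464, 2429.7, 1603 and 3789 CPM against 0, 0, 0 and 442 (5.53 ± 0.86). Cald1, caldesmon, was at 8725, 9372, 10289 and 11658 CPM against 672, 1835, 888 and 2208 (3.14 ± 0.35). Cald1 overlaps Gm13861 on the opposite strand.

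Other genes higher on the mural side were less tied to muscle. Vtn was 2.75 ± 0.63 higher (edgeR adjusted p = 0.0015), but did not pass without library 2 (1.95) or with no low-count filter (1.99). Filip1l, a filamin-interacting protein, was at 2664, 2429.7, 1336 and 2040.2 CPM against 120.0, 595, 0 and 0 (3.85 ± 0.70). Sparcl1, a matrix protein that astrocytes also make, was at 8592, 5785, 4276 and 6412 against 1536, 1488, 1598 and 1104 CPM (2.33 ± 0.34), and did not pass with no low-count filter (1.62). The sides did not overlap for any of these 3 genes. Vtn and Filip1l were under the low-count filter's 1130 CPM in every endothelial sum. Sparcl1 was under it there only in library 4. Pericyte genes other than Vtn had too few UMIs to be tested: of 28 in the tables, 1 was tested. Cspg4, the NG2 proteoglycan of pericytes and oligodendrocyte precursors, had 21 of its 24 vascular UMIs on the mural side, and against other non-neuronal barcodes it did not pass (0.99 ± 0.43, edgeR adjusted p = 0.074). Cspg4 passed with at least 300 genes per barcode (1.11) and without barcodes with an undetermined base (1.09). Filip1l overlaps Cmss1 on the opposite strand, and Sparcl1 Gm26703.

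Gpr116, Slc2a1 and Bsg were among the genes higher on the endothelial side. Gpr116, an adhesion receptor, was at 2353, 2083, 3197 and 2098 CPM against 66.6, 231, 134 and 0 on the mural side (-4.07 ± 0.67, mural over endothelial, edgeR adjusted p = 0.00011). Slc2a1 was at 1873, 2033, 1776 and 1546 against 133, 116, 134 and 0 CPM (-3.71 ± 0.72). Bsg, basigin, a partner of lactate carriers, was at 7010.1, 6397, 4617 and 2871 against 799, 579, 935 and 0 CPM (-2.89 ± 0.44). All 3 tested barrier transporters and both tested endothelial identity genes, Itm2a and Bsg, were lower on the mural side, as were B2m (-2.26 ± 0.59) and Klf2 (-2.39 ± 0.60). All these genes, Gpr116 included, were under the low-count filter's 1130 CPM in every mural sum. They passed the filter only through the endothelial sums, so they could hardly be called otherwise.

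Sparc and Timp3 did not separate the sides. Sparc was at 799, 1736, 2004 and 874 CPM in the mural and 1705, 1686, 1066 and 1104 in the endothelial side (0.05 ± 0.49, edgeR adjusted p = 0.95), with overlapping ranges. Timp3 was 0.62 ± 0.35 higher in the mural side (edgeR adjusted p = 0.15). Of 9 tested immediate early genes, Klf2 was lower on the mural side and 8 did not pass; Fos was at 4196, 4281, 2806 and 4080.4 CPM there against 1392, 3868, 3019 and 5852 (0.52 ± 0.39, edgeR adjusted p = 0.28).

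**Figure D4:**
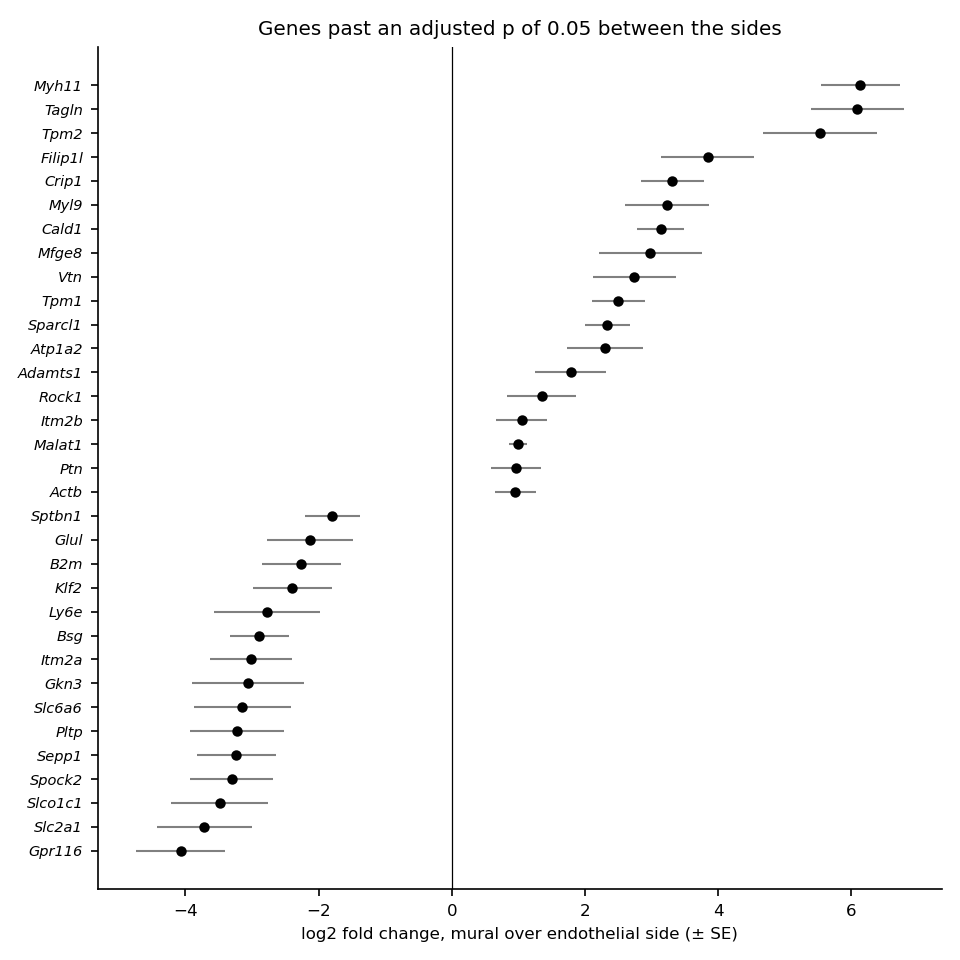
Log2 fold change (mural over endothelial side, with SE bars) of the genes outside the rule past an adjusted p of 0.05. Myh11, Tagln and Tpm2 lie above 5, and Gpr116 and Slc2a1 lie farthest to the left at -4.07 and -3.71.

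Promoters of the 8 named mural-side genes with a window were searched for the CArG box, the site that serum response factor binds in contractile genes. Only the exact form CCWWWWWWGG, where W is A or T, was matched, on both strands. This form occurred in 2 of 8, against 1.81% of all 27025 genes, and in 1 of 18 genes of the smooth muscle list with a window. The window of Acta2 had no exact match. Stretches a letter away from the form, such as ccctatatgg in that window, were not counted, so sites of that kind are missed. The windows of Filip1l (chr16:57548992-57549291, + strand) and Myl9 (chr2:156775214-156775513, + strand), from RefSeq on GRCm38.p6, are shown because they hold the form, in capitals, at -62 and -161 from the start. They were chosen after the matches were seen. Filip1l has a further start whose window had no match. Myl9, a myosin light chain, was at 4263, 2893, 2138 and 5246 CPM in the mural and 48, 645, 533 and 1104 in the endothelial side (3.24 ± 0.63, edgeR adjusted p = 0.00047).
Filip1l: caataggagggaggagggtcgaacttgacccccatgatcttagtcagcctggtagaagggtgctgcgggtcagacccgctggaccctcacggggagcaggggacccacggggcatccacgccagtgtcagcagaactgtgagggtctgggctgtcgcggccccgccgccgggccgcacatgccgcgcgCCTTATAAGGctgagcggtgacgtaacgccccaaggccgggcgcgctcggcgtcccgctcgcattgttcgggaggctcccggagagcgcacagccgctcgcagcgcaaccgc
Myl9: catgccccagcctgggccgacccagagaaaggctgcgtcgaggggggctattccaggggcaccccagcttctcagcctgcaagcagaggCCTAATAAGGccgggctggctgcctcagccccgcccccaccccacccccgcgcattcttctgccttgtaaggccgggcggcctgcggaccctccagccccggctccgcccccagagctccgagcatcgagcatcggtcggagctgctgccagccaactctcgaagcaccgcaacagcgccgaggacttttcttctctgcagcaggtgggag

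Within the sides, further splits were made after seeing the data and are described without a test. On the mural side, the 14 barcodes with more Acta2 than Rgs5 UMIs had 55758 CPM of the smooth muscle list and 5351 CPM of the pericyte list (without Rgs5, Rgs4, Ebf1 and Zic1). The 17 with more Rgs5 had 22123 and 14620 CPM. Tagln was at 7479 against 1103 CPM and Vtn at 304 against 3531 CPM, and all 10 mural-side Kcnj8 UMIs lay with the Rgs5-rich barcodes. Acta2 and Rgs5 themselves belong to neither of the sums. These 2 subsets thus differed in both lists, in opposite directions, in each library.

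On the endothelial side, 23 barcodes had an Rgs5 UMI and 33 had none. The pericyte list had 126 UMIs in the former (2668 CPM) and 7 in the latter (239 CPM), where Vtn, Higd1b, Pdgfrb, Kcnj8, Tagln and Myh11 were all at 0. The endothelial list stood at 21977 and 26985 CPM, so endothelial genes were abundant in both. The median depth was 1470 UMIs with Rgs5 and 740 without. After thinning each barcode to 500 UMIs, the pericyte list was at 3000 CPM in the 16 barcodes with an Rgs5 UMI and 1333 CPM in the 39 without. Scrublet, a doublet caller, marked 1 of the 23 and none of the 33. Whether the 23 hold RNA of a pericyte captured with an endothelial cell was not tested.

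Of the 31 mural-side barcodes, 7 had an endothelial-side UMI. Vtn was at 4326 CPM in these 7 while Myh11 was at 0 and Tagln had 1 UMI. Vtn was seen in 6 of the 7, and the other, with 540 UMIs in all, had no UMI of the pericyte list. The endothelial list stood at 10018 CPM in the 7 and at 1435 CPM in the other 24, and Scrublet marked 1 of the 7 and none of the 24. Those 24 held 142 Tagln and 125 Myh11 UMIs, and in them Itm2a, Cldn5 and Pecam1 were at 0. Whether the 7 hold RNA of 2 cells was not tested.

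**Figure D5:**
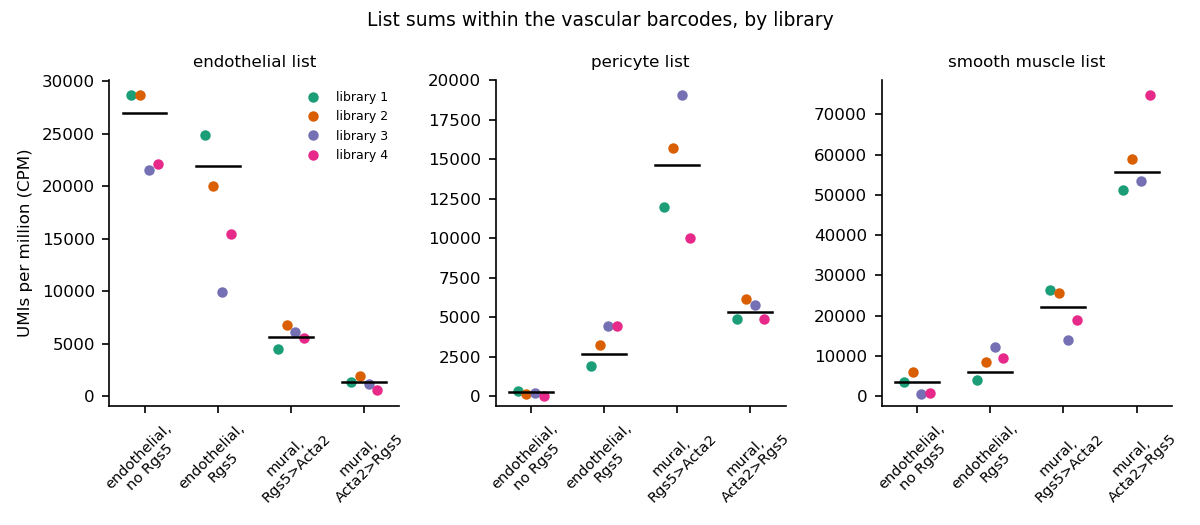
Summed levels (CPM) of the endothelial, pericyte and smooth muscle lists in 4 subsets of the vascular barcodes; points are libraries and bars the pooled level. The pericyte list is highest, 14620 CPM pooled, in mural-side barcodes with more Rgs5 than Acta2.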

How the data were processed

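The deposited tables hold UMI counts per gene and barcode, 1 table for each of 4 Drop-seq libraries. The authors' processing used bcl2fastq 2.18.0.12, STAR 2.4.2a and Picard 2.2.4 on mm10/GRCm38, per the submitters' processing notes; how reads were assigned to genes and strand is not given in the sources used here. The tables list 20136 gene names, of which 18830 (93.5%) were found in GENCODE vM21. The members, the gene lists and the splits were chosen with earlier results of these data known.

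Counts were summed per library and class with Python 3.11.15 and pandas 2.3.3, and the sums went into edgeR 4.0.16 under R 4.3.3 (scaling by TMM, filterByExpr, a term for library, quasi-likelihood test, Benjamini-Hochberg adjustment over all genes tested). Same-library sums come from the same pooled mice, so the library is the block. A library entered the mural comparison with at least 5 barcodes on each side. CPM are UMIs per 1000000 UMIs of the class. A count of 0 allows 3 counts over the group, and bounds on folds use that floor. Genes named were the vascular genes of the rule, the 12 largest rises and 6 largest falls past the threshold with at least 20 UMIs in the higher class and the same direction in every library, up to 6 members past the threshold and 3 not past it in each list, and 8 genes that check the label. A gene among the largest falls is not reported here. Other genes given by their UMIs or a value (Notch3, Hes1, Nos3, Egr1, Col1a2 and the like) came from the lists and were chosen after their values were seen.

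In vascular barcodes depth was 12487 to 62115 UMIs per library, which limits precision. On simulated data with known changes, filter and test together recovered 15.5% of 4-fold and 67.5% of 16-fold changes against all other barcodes. They recovered 30.5% and 71.5% against other non-neuronal barcodes, and 57.9% and 73.7% between the sides, where 19 genes were changed. Changed genes that the low-count filter removed count as not recovered, and between the sides 11 and 14 of the 19 were tested. The simulated spread between libraries was a fixed setting and was not estimated from the data. Doublets were called with Scrublet in scanpy 1.11.5, which marked 58 of 4239 barcodes (1.37%), and were kept. Alternatives were DESeq2 1.42.0, other scaling and filters, other thresholds of the rule, thinning to 500 UMIs, no library block, and leaving out each library.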

Additional observations from a re-analysis of the deposited data

Results flagged for a closer look

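Vascular genes were also found in barcodes that the filters left out of the comparisons above, some of which entered the alternative with at least 300 genes. Among barcodes under the neuronal limit with at least 3 vascular UMIs, 112 had fewer than 400 genes, 13 had over 10% mitochondrial UMIs and 29 had both, so the filters kept 36.4% of such barcodes. The 112 had a median of 349.5 UMIs, with 32, 24, 22 and 34 in libraries 1 to 4, and 71 of them lay on the endothelial and 38 on the mural side. In them Cldn5 stood at 1068 CPM, Itm2a at 3306 CPM and Tagln at 610.4 CPM, whereas Cldn5 averaged 0.279 CPM in other non-neuronal barcodes. They outnumbered the vascular barcodes that passed in library 2 (24 against 23), library 3 (22 against 15) and library 4 (34 against 13), but not in library 1 (32 against 37). In 20 sets of values searched for a library far from the other 3, none was found, where chance gives about 1.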

How the results depend on the processing

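In no alternative did a call that was kept change sign. Against all other barcodes 2779 genes were called, 1206 with mitochondrial UMIs at most 5%, 1358 after thinning to 500 UMIs, and 1797 to 2444 leaving out each library, the lowest without library 2. Against other non-neuronal barcodes 1436 were called, 505 with at least 800 genes, 380 with mitochondrial UMIs at most 5%, 2336 with no low-count filter, 780 after thinning, and 1128 to 1516 leaving out each library. Between the sides 43 were called, 105 with no low-count filter, 14 after thinning, and 32 to 55 leaving out each library. Without the replicate block (the library term) 3562, 1566 and 45 genes were called in the 3 comparisons. The mean vascular share was 0.802% with at least 800 genes and 1.22% with mitochondrial UMIs at most 5%, 1.94% to 2.75% under the other filters, and 1.81% to 2.39% leaving out each library. Thinning, stricter filters and left-out libraries leave fewer barcodes or genes to test, and the cause of other changes was not tested. Of the named genes past the threshold, 18 of 18, 90 of 97 and 20 of 25 stayed past it in every alternative that tested them. The 18 were only the 12 largest rises and 6 largest falls against all other barcodes. Genes named from the lists were not followed in that comparison. Genes not past the threshold changed sign. Nr3c1 was at -0.014 with no low-count filter and -0.043 to 0.58 leaving out each library, and Tsc22d3 at -0.21 with mitochondrial UMIs at most 5% and -0.095 to 0.76 leaving out each library, both lowest without library 1. Between the sides, with no low-count filter Timp3 was at -0.071, Fos at -0.18 and Sparc at -0.63, and Fos was at -0.52 after thinning. Sparc was also at -0.25 with DESeq2, -0.28 with relative log expression scaling, -0.090 without Scrublet-called barcodes, -0.33 with at least 2 vascular UMIs, -0.13 with at least 300 genes, -0.25 without barcodes rich in glial markers (an alternative added after seeing the data), -0.015 without barcodes with an undetermined base, -0.28 with neuronal genes under 0.3%, and -0.47 to 0.43 leaving out library 1, 3 or 4, below 0 without library 3 or 4; without library 2 it had too few UMIs to be tested. At 800 genes, at 5% mitochondrial UMIs and with a stricter split, the sides were not compared, because fewer than 3 libraries had 5 barcodes of each.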
